A study of Mus musculus with 4 samples.

Results

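The genes of oxidative phosphorylation were followed through 4 stages of a culture. In it, cells described as primary mouse hepatocytes, taken from liver rather than from a line, are led stepwise toward insulin-producing cells. Genes were taken by name, as the rows of the deposited read table that begin with mt-Nd, mt-Co, mt-Cytb, mt-Atp, Nduf, Uqcr or Atp5, that are Cox with a digit, or that are Sdha to Sdhd. This gave 114 of the 30138 genes in the table, of which 13 lie in mitochondrial DNA and 101 in the nuclear genome. Of the nuclear genes, 81 encode structural subunits and 20 are assembly factors or other names that the rule takes. A gene was treated as measured when it reached 1 CPM, the read count relative to the library total, in at least 1 library, which held for all 13 mitochondrial genes and for 95 nuclear genes, 77 of them structural. The 6 nuclear genes below that level were Cox20, Cox6a2, Cox7b2, Cox8b, Cox8c and Ndufa4l2.

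Oxidative phosphorylation passes electrons from NADH and succinate through complexes I to IV of the inner mitochondrial membrane to oxygen, and complex V (ATP synthase) uses the proton gradient so formed to make ATP. The proteins of complexes I, III, IV and V come from both genomes, while complex II is entirely nuclear encoded. Mitochondrial DNA is transcribed by its own polymerase into long polycistronic RNAs that are cut into single transcripts, so its genes share transcription, whereas every nuclear subunit has its own promoter. Liver is rich in mitochondria, and in the beta cell the ATP made from glucose is the signal that starts insulin secretion.

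Each stage was 1 library of total RNA. All cells had first been kept with 10% fetal bovine serum in high-glucose medium. The starting stage, S0, was the following culture without that serum, in medium with 2% knockout serum, β-mercaptoethanol, L-glutamine, B-27, N-2, non-essential amino acids, penicillin and streptomycin, and with the growth factors bFGF and EGF at 20 ng/ml each. For S1 the cells received 5-azacytidine, which inhibits DNA methylation, for 48 h (5 mM according to the labels) and then trichostatin A, which inhibits histone deacetylases, for 24 h (100 nM). For S2 they received 7 days of the ITS supplement and retinoic acid (2 mM according to the labels), and for S3 7 days of nicotinamide at 10 mM in medium free of both growth factors. The later stages follow the earlier ones, so S2 and S3 cells carry the previous treatments too, and the labels do not say how many animals gave the cells. The 4 comparisons were each stage against the one before it and S3 against S0.

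With 1 library per stage there was no test, and a difference between stages cannot be told apart from a difference between cultures or libraries. A value in parentheses after a fold is its 95% Clopper-Pearson interval, which covers counting error only. Genes whose whole interval lay beyond 2-fold are called higher or lower below. The libraries of S0 to S3 held 27602967, 26655887, 22944047 and 23633176 reads in genes. The cell populations also differed between the libraries. Of 8 listed hepatocyte markers, 7 had deposited counts, and these, Alb among them, had reads in each library. Summed over these 7 the level in S0 to S3 was 499, 2605, 8586 and 4032 CPM. Summed over 8 macrophage markers it was 12421, 3138, 681 and 662 CPM, and over 6 proliferation markers 1158, 119, 50.2 and 245 CPM. The 8 fibroblast and stellate markers summed to 5646, 1541, 1641 and 3126 CPM, 5 biliary markers to 1567, 1566, 581 and 595 CPM, and 6 endothelial markers to 21.6, 15.1, 5.69 and 6.19 CPM. Markers of a list did not all move alike. In S3 over S0, 4 of 8 fibroblast and stellate markers were higher and 2 lower, with a median log2 ratio of 0.85 although their sum was lower. Of 5 biliary markers, 1 was higher and 2 lower there (9.2% and 10.5% of all genes). Of 7 hepatocyte markers, 4 were higher and 1 lower in S1 over S0 (12.6% and 13.1% of all genes). No marker with deposited counts was at 0 reads in any library. In S0 the macrophage, fibroblast and biliary sums each exceeded the hepatocyte sum, so S0 cannot be read as hepatocytes alone. Comparisons with S0 need not be changes within hepatocytes. In such bulk RNA, fewer cells of a type and less RNA per cell cannot be told apart, and the part of these populations in the results below was not tested.

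The RNA of the mitochondrial genes took a larger share of the library in S2 and S3 than in S0, while the share of the nuclear genes in those stages stayed near that of S0. From S0 to S3, reads of the 13 mitochondrial genes made up 1.21%, 1.26%, 1.88% and 2.96% of each library, and without mt-Co1 0.205%, 0.155%, 0.271% and 0.449%. The 101 nuclear genes held 0.812%, 1.02%, 0.834% and 0.804%, with the highest share in S1 and S0, S2 and S3 close together. For every read in a nuclear member there were thus 1.49 reads (1.49 to 1.5) in a mitochondrial member in S0. The S1 ratio was 1.23 (1.22 to 1.24), that of S2 2.26 (2.25 to 2.27) and that of S3 3.69 (3.67 to 3.70). This ratio is formed within a library and does not depend on scaling between libraries. From S0 to S1 it was 1.21-fold lower, from S1 to S2 1.84-fold higher and from S2 to S3 1.63-fold higher, which made it 2.47-fold higher in S3 than in S0.

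mt-Co1, the catalytic subunit of complex IV, dominated the sum, with 83.1%, 87.7%, 85.6% and 84.8% of the mitochondrial members' reads in S0 to S3. Without it the ratio was 0.252, 0.151, 0.325 and 0.559, so the order of the stages was the same and the dip in S1 deeper (1.67-fold lower than S0). Within complex I the ratio of mitochondrial to nuclear structural subunits was 0.811, 0.450, 0.967 and 1.59. Within complex III it was 0.577, 0.333, 0.727 and 1.38, within complex IV 8.04, 6.33, 11.9 and 17.7, and within complex V 0.00765, 0.00424, 0.00935 and 0.0205. Every complex with subunits from both genomes therefore had its lowest ratio in S1 and its highest in S3.

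**Figure D1:**
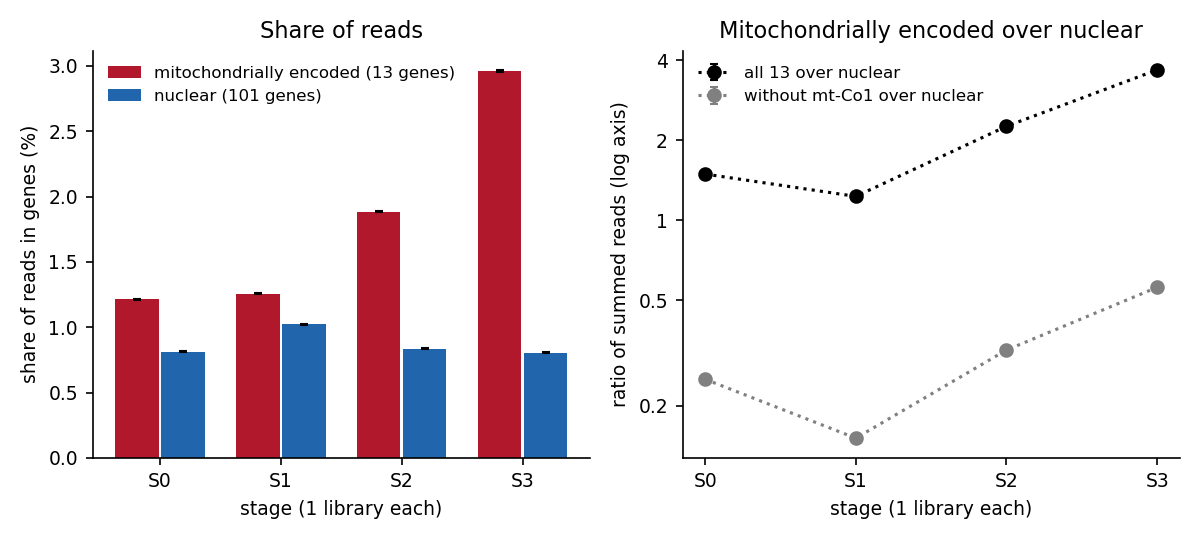
Left, share of reads in genes (%) held by the 13 mitochondrially encoded and 101 nuclear members in each stage (bars, 1 library each, with 95% counting intervals). Right, the ratio of their summed reads on a log axis, with and without mt-Co1; it is lowest in S1 (1.23) and highest in S3 (3.69).

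Taken gene by gene, the mitochondrial members were lower in S1 than in S0, though none past the rule, and this direction rests in part on the scaling between libraries. Scaled with TMM factors they summed to 12533, 11541, 19693 and 29874 CPM. Of 13, 0 were called higher and 0 lower in S1 over S0, where 12.6% of all 15222 measured genes were higher and 13.1% lower. The interval lay wholly below no change for 11 of 13, against 42.9% of all measured genes, and the median log2 ratio was -0.44, against -0.04 over all genes. The exceptions were mt-Nd3 and mt-Nd4l, whose intervals crossed no change at 33 to 49 reads per library. Without scaling factors 8 of 13 intervals lay below no change and 1, that of mt-Co1, above it. The log2 ratios of mt-Co1, mt-Co3 and mt-Nd4l changed sign to 0.13, 0.05 and 0.0073. The median was then -0.27, against 0.14 over all genes, and the shares of all genes are not given for that setting. In S2 over S1 the interval lay above no change for 12 of 13 (39.3% of all genes), and 2 genes, mt-Nd4 and mt-Nd5, were called higher and 0 lower, against 6.71% of all genes higher and 10.1% lower. The median log2 ratio there was 0.91, against 0.02 over all genes.

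In S3 over S2 all 13 intervals lay above no change (28.9% of all genes), with a median log2 ratio of 0.85 against 0.00, and 0 were called higher and 0 lower, against a background of 3.69% higher and 1.14% lower. Against S0, all 13 in S3 again lay above no change (39.6% of all genes), with a median of 1.21 against 0.05. Of these, 7 were called higher and 0 lower, where 9.2% of all genes were higher and 10.5% lower: mt-Nd4, mt-Nd6, mt-Cytb, mt-Co1, mt-Co2, mt-Co3 and mt-Atp6. The comparisons share libraries, so these counts are not independent of each other.

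With looser limits more mitochondrial members were called. When the interval had only to lie beyond 1.5-fold, 4 mitochondrial members were lower in S1 over S0 (19.7% of all genes higher, 21.6% lower), and 10 were higher in S2 over S1 (14.8% higher, 16.1% lower). By that limit 9 were higher in S3 over S2 (7.29% higher, 3.36% lower) and 12 in S3 over S0 (16.4% higher, 15.4% lower). By the point ratio alone, beyond 2-fold, 1 was lower in S1 over S0 (17.5% of all genes higher, 17.4% lower) and 5 were higher in S2 over S1 (11.1% higher, 16% lower). By the same point ratio 2 were higher in S3 over S2 (8.57% higher, 4.85% lower) and 12 in S3 over S0 (15.1% higher, 14.2% lower).

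Among the complex I genes, which encode its membrane arm, mt-Nd1 (ENSMUSG00000064341) stood at 812, 491, 998 and 1650 CPM in S0 to S3. It lay just outside the rule in S3 over S0, with a 2.03-fold ratio whose interval began below 2. mt-Nd4 (ENSMUSG00000064363) stood at 183, 135, 294 and 481 CPM. Its S2 level was 2.18-fold (2.09 to 2.27) that of S1, and its S3 level 2.62-fold (2.54 to 2.71) that of S0. mt-Nd2 stood at 187, 107, 201 and 374 CPM, and was 1.75-fold lower in S1 than in S0 (1.67 to 1.83).

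mt-Nd5 stood apart between S2 and S3. Its levels were 342, 262, 539.7 and 622 CPM, so that S2 was 2.06-fold above S1 (2.00 to 2.12), just inside the rule, while S3 exceeded S2 by 1.15-fold (1.12 to 1.18), the smallest ratio of the 13 in that comparison. mt-Nd6 is encoded on the other strand and overlaps the end of mt-Nd5. It stood at 32.6, 28, 50.6 and 101 CPM and was 3.09-fold higher in S3 than in S0 (2.86 to 3.35), the largest ratio of the 13 in that comparison. For each read of mt-Nd5 the libraries of S0 to S3 held 0.0951, 0.107, 0.0938 and 0.162 reads of mt-Nd6. Whether the counting used the strand is not given in the sources used here, so reads in the overlap of this pair are uncertain. mt-Nd3 and mt-Nd4l were sparse, at 1.83, 1.34, 2.32 and 4.91 CPM and at 1.27, 1.14, 1.64 and 2.95 CPM.

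mt-Cytb (ENSMUSG00000064370), cytochrome b of complex III, stood at 414, 279, 543 and 977 CPM. It was 1.49-fold lower in S1 than in S0 (1.44 to 1.53) and 2.36-fold higher in S3 than in S0 (2.31 to 2.41). The 3 genes of complex IV form its catalytic core. Of these mt-Co1 and mt-Co3 had the ratios nearest to no change of the 13 in S1 over S0. mt-Co1 (ENSMUSG00000064351) stood at 10417, 10121, 16861 and 25340 CPM, and S1 differed from S0 by 1.03-fold (1.02 to 1.03). mt-Co2 stood at 37.3, 28.7, 51.8 and 86.0 CPM, and mt-Co3 at 77.7, 71.4, 117 and 174 CPM. From S0 to S3 these 3 were 2.43-fold (2.42 to 2.44), 2.31-fold (2.14 to 2.49) and 2.24-fold (2.12 to 2.36) higher.

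Both complex V genes encode parts of the membrane sector of ATP synthase. mt-Atp6 stood at 25.6, 15, 31.4 and 58.8 CPM and was 2.30-fold higher in S3 than in S0 (2.09 to 2.52). mt-Atp8 had 42, 12, 25 and 76 reads. Its S1 level was 3.80-fold below S0, with an interval from 1.97 to 7.94 that just missed the rule. mt-Atp8 overlaps mt-Atp6, and mt-Nd4l overlaps mt-Nd4, so their reads are uncertain too.

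Per length, the 13 genes differed far more from each other than across stages. On the deposited RPKM scale (reads relative to gene length and library size) mt-Co1 was at 2365, 2586, 3803 and 5823 in S0 to S3, while mt-Co2, which follows it in gene order, was at 19.1, 16.6, 26.4 and 44.7. The mt-Co1 level exceeded that of mt-Co2 by 124-fold, 156-fold, 144-fold and 130-fold in S0 to S3. In the stretch between mt-Co1 and mt-Nd4 the 6 genes mt-Co2, mt-Atp8, mt-Atp6, mt-Co3, mt-Nd3 and mt-Nd4l ranged from 1.5 to 34.8 RPKM in S0, and the other 7 from 22 to 2365 RPKM. In S3 these ranges were 3.52 to 78.8 and 68.9 to 5823 RPKM. This stretch was singled out after its values were seen. The mouse nuclear genome carries near-identical copies of parts of mitochondrial DNA, and how reads that match both were counted is not given in the sources used here, so levels between these genes are uncertain. Their part in the low stretch was not tested.

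**Figure D2:**
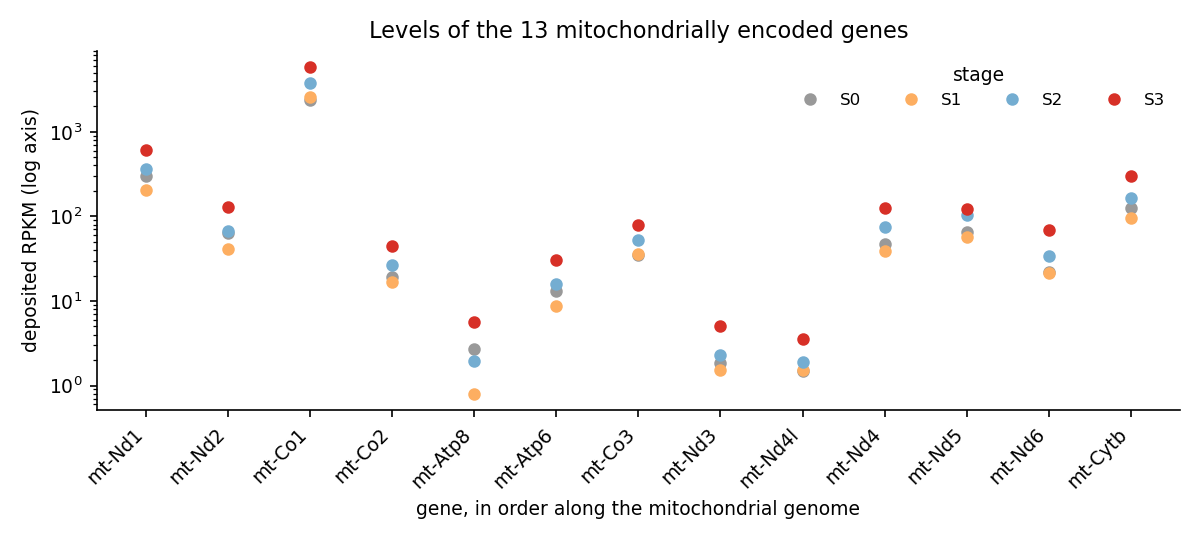
Deposited RPKM (log axis) of the 13 mitochondrially encoded genes in their order along the mitochondrial genome, with 1 point per stage (1 library each). mt-Co1 stands at 2365 to 5823 RPKM, and the 6 genes after it lie at 78.8 RPKM or less in every library.

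By their medians the nuclear members moved less, and in S1 in the other direction. In S1 over S0, 4 of 95 measured nuclear members were called higher (Uqcrh, Ndufaf2, Cox6b2 and Cox7a1) and 0 lower, under the background of 12.6% higher and 13.1% lower. Cox7a1 reached 1 CPM in S1 alone, so its direction here and in S2 over S1 was set by the filter. The median log2 ratio was 0.29, and the interval lay above no change for 58 and below it for 22 of 95, against 39.8% and 42.9% of all genes. Without scaling factors 67 lay above and 11 below, and the shares of all genes are not given for that setting. In S2 over S1, 0 were higher and 2 lower (Cox6b2 and Cox7a1), with a median of -0.08 and 21 intervals above and 46 below no change (39.3% and 37.2% of all genes). In S3 over S2, 1 was higher (Cox6b2) and 0 lower, with a median of -0.05 and 10 intervals above and 33 below no change (28.9% and 27.7% of all genes). Between S0 and S3, 1 was higher in S3 (Cox6b2) and 0 lower, with 37 intervals above and 25 below no change (39.6% and 36.1% of all genes). The median there was 0.03 and became -0.017 with the size factors of DESeq2. Within 1.5-fold lay 72.6%, 87.4%, 95.8% and 93.7% of the measured nuclear members in the 4 comparisons, against 46.4%, 54.0%, 74.8% and 53.8% of all measured genes with a ratio. Among genes with a mean of at least 10 CPM, a condition added after the values were seen, the shares were 76.2%, 89.3%, 98.8% and 96.4% of 84 nuclear members and 56.0%, 64.3%, 86.5% and 64.3% of 9764 genes.

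**Figure D3:**
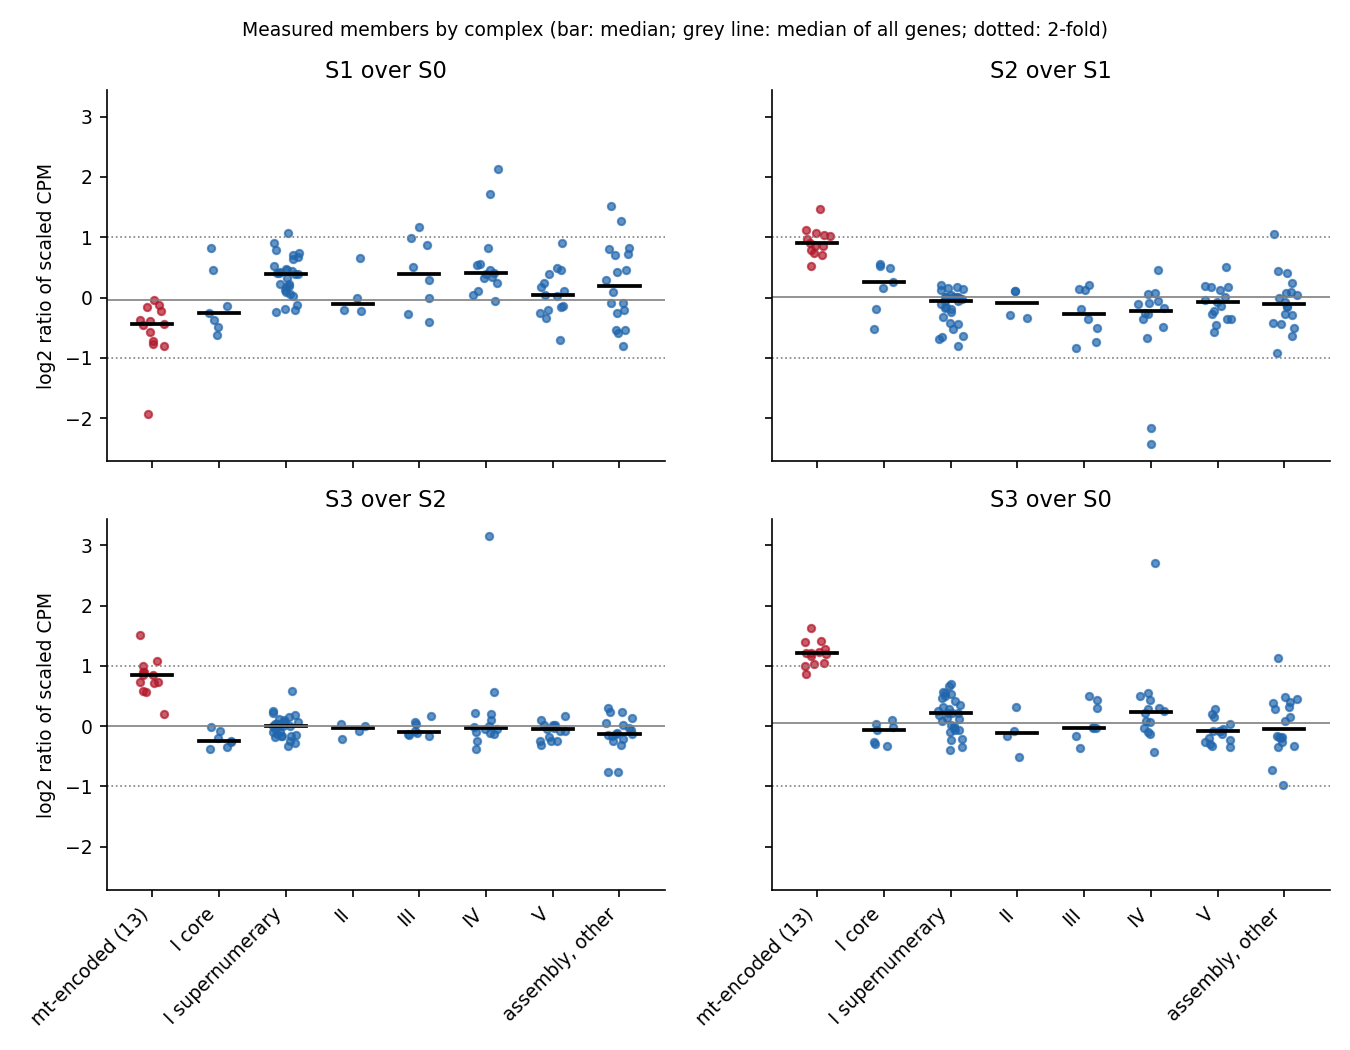
Log2 ratio of scaled CPM for every measured member in the 4 comparisons, by complex (points are genes, black bars medians, the grey line the median of all genes, dotted lines 2-fold). The mitochondrially encoded genes (red) lie below 0 in S1 over S0 (median -0.44) and above 0 in the other panels. Most members of either genome stay within 2-fold, except in S3 over S0, where 12 mitochondrially encoded genes lie beyond it.

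In complex I, the largest complex and the entry point for NADH electrons, the subunits of the catalytic core and the supernumerary ones around it differed in S1. Over all measured genes 39.8% lay above no change in S1 over S0 and 42.9% below. Of 7 nuclear core subunits, 2 lay above no change and 5 below, with a median log2 ratio of -0.26 (-0.09 without scaling factors). The 2 above were Ndufv1, which binds NADH, at 68.0 CPM in S0 and 119.6 in S1 (log2 ratio 0.82), and Ndufv2, an iron-sulfur subunit beside it, at 80.2 and 110.5 CPM (0.46). Ndufs1, the third core subunit of the NADH-binding module, was among those below, at 118 and 107 CPM (-0.14). The largest ratio in the other direction was that of the iron-sulfur subunit Ndufs8, which stood at 53.2, 34.6, 50 and 42.3 CPM and was 1.54-fold lower in S1 (1.42 to 1.67). None of the 7 passed the rule.

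Of 29 supernumerary subunits, which help to assemble and stabilise complex I, 22 lay above no change in S1 over S0 and 3 below (39.8% and 42.9% of all genes), with a median log2 ratio of 0.40. Ndufb9 stood at 59.7, 125, 80.9 and 82.9 CPM and came nearest to the rule, with a 2.10-fold higher level in S1 (1.98 to 2.23). Ndufb6 stood at 24.7, 46.3, 26.6 and 26.7 CPM, 1.87-fold higher in S1 (1.70 to 2.05). Both were highest in S1. Per length, Ndufa7 had the highest mean level of the nuclear complex I subunits, at 35.1, 63.3, 54.7 and 52.2 RPKM, and Ndufb2 the lowest, at 0.670, 0.694, 0.664 and 0.808 RPKM. The length behind the RPKM of Ndufb2 was 4371 bases, against 640 bases for Ndufa7. For S3 over S0 the supernumerary median was 0.22 and the core median -0.07.

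Complex II, the succinate dehydrogenase that joins the citric acid cycle to the electron chain, had medians near no change. Its genes did not move alike. In S1 over S0, 1 of 4 intervals lay above no change and 2 below (39.8% and 42.9% of all genes). Sdha, the flavoprotein subunit, stood at 208, 179, 192 and 198 CPM. Sdhb, the iron-sulfur subunit, stood at 105, 105, 85.6 and 73.8 CPM, with S3 1.42-fold below S0 (1.33 to 1.51). Of the membrane anchors, Sdhc stood at 85.8, 136, 107 and 108 CPM (log2 ratio 0.66 in S1 over S0). Sdhd stood at 112, 97.3, 106 and 100.2 CPM (-0.21). The median log2 ratio of the 4 genes was -0.10 in S1 over S0 (0.07 without scaling factors) and -0.12 in S3 over S0, and no interval passed the rule in any comparison. Per length, Sdhd had the highest mean (29.2 RPKM) and Sdhc the lowest (12.6 RPKM).

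In complex III, which passes electrons from ubiquinol to cytochrome c, 5 of 8 nuclear subunits lay above no change in S1 over S0 and 2 below (39.8% and 42.9% of all genes), with a median log2 ratio of 0.40. Uqcrh (ENSMUSG00000063882), the hinge protein at the cytochrome c1 side, was the only nuclear structural subunit other than the tissue-restricted isoforms to pass the rule in any comparison. It stood at 73.0, 163, 98.2 and 89.7 CPM in S0 to S3, so that S1 was 2.24-fold above S0 (2.12 to 2.36) and higher than all other stages. Uqcrh overlaps the predicted gene Gm12854 in the RefSeq annotation, and reads of that pair are uncertain. Other small subunits of the complex differed. Uqcr11 at 41.4, 82.2, 64.5 and 58.6 CPM (1.98-fold, 1.85 to 2.13) and Uqcr10 at 47.5, 87.0, 61.3 and 64.2 CPM (1.83-fold, 1.71 to 1.96) were close to Uqcrh. Uqcrb, also small, went the other way, with a log2 ratio of -0.28 in S1 over S0. The large core protein Uqcrc1 stood at 247, 185, 203 and 192 CPM, 1.33-fold lower in S1 (1.28 to 1.38). Per length, Uqcrb was the highest (49.9 to 53.7 RPKM) and Uqcrq the lowest (2.09 to 4.21 RPKM).

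In complex V, the nuclear members include the catalytic head and most of the stalk, and none of 15 structural subunits passed the rule. The median log2 ratio was 0.04 in S1 over S0 and -0.08 in S3 over S0. Atp5b (ENSMUSG00000025393), the catalytic beta subunit, had the highest CPM of all nuclear members, at 1316, 1336, 1293 and 1038 CPM, and S3 was 1.27-fold below S0 (1.25 to 1.29). Atp5h, subunit d of the stalk, stood at 118, 220.4, 148 and 143 CPM, 1.86-fold higher in S1 (1.79 to 1.95). Atp5g1, Atp5g2 and Atp5g3 encode the same mature ring subunit c, and of these Atp5g2 stood at 58.4, 35.9, 51.1 and 55.0 CPM, 1.63-fold lower in S1 (1.5 to 1.76). Per length, Atp5b was the highest (192 to 275 RPKM) and Atp5g1 the lowest (5.51 to 6.69 RPKM), with a length of 4715 bases behind the latter value.

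Nuclear structural subunits with short gene lengths had higher ratios in S1 over S0 than those with long ones, a relation looked at after the values were seen. Lengths are those behind the deposited RPKM and need not be those of the transcripts present. The class over 2 kb holds Ndufb2, Ndufb7 and Atp5g1 at 4371, 4435 and 4715 bases. The class under 1 kb holds Cox7a1 (364 bases, log2 ratio 2.13), whose direction in S1 over S0 was set by the filter. The median log2 ratio was 0.40 for 40 genes under 1 kb, 0.29 for 21 genes of 1 to 2 kb and -0.13 for 16 genes over 2 kb, whereas all measured genes of the nuclear genome had medians of 0.11, 0.00 and -0.06 in the same classes. Across the 77 subunits the Spearman correlation of length and ratio was -0.42, and across 15073 genes of the nuclear genome -0.03. For the subunits it was 0.22 in S2 over S1, the opposite sign, -0.22 in S3 over S2 and -0.42 in S3 over S0, and for all those genes 0.05, -0.02 and 0.01. Genes of 1 comparison share their libraries and are not independent, so these are descriptions. Lengths also differed by role, with a median of 908 bases for 29 supernumerary and 1540 bases for 7 core nuclear subunits of complex I, so the 2 were not separated.

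**Figure D4:**
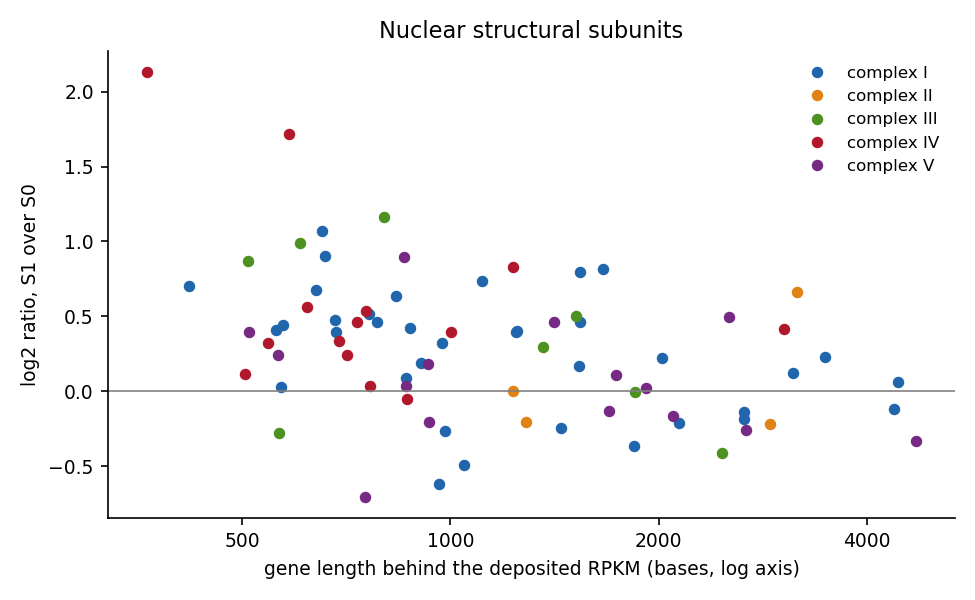
Log2 ratio of S1 over S0 (y axis) against gene length in bases (log x axis) for the 77 measured nuclear structural subunits, 1 point per gene, coloured by complex. Most genes under 1 kb lie above 0 (median 0.40) and those over 2 kb lie on both sides of it (median -0.13). The point at 364 bases is Cox7a1, which is included only because it reached 1 CPM in S1.

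The promoters of Uqcrh and Atp5h are shown because both genes had their highest level in S1 and carry motifs of regulators known for respiratory genes. They were chosen after their values were seen, and other genes that were highest in S1, Ndufaf2 and Uqcr10 among them, held none of the 4 motifs searched. Members with a lower level in S1 than in S0 carried such motifs too, among them Ndufs3 and Ndufs8 (GABPA) and Uqcrc1 and Atp5g2 (NRF1). The 250 bases before each start come from RefSeq (GRCm38.p6), 5′ to 3′ on the gene's strand, at chr4:116075071-116075320 (minus strand) for Uqcrh and chr11:115419920-115420169 (minus strand) for Atp5h. Capitals mark the ETS motif CCGGAAG of GABPA, here on the other strand as CTTCCGG, and in Atp5h also GCGCANGCG of NRF1.
Uqcrh: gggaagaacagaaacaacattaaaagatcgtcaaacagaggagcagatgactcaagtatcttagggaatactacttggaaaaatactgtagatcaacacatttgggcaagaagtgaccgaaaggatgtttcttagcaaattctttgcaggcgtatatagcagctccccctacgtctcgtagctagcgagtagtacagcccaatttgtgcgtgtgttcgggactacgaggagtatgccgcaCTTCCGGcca
Atp5h: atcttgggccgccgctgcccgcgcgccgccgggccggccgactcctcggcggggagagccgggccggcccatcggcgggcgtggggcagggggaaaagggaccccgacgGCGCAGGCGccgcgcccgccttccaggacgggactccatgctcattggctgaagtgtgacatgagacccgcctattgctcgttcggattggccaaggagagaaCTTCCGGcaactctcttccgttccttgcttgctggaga

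Promoters of 300 bases (250 before and 50 after the start) were at hand for 80 of 101 nuclear members. On either strand the NRF1 letters GCGCANGCG were found for 27.5% of these genes, against 6.25% of all 32851 promoters in the table, and the GABPA letters CCGGAAG for 27.5% against 8.86%. The YY1 letters AAGATGGC were found for 13.75% against 2.75%, and the ERRA letters CAAGGTCA for 5% against 1.56%. The median number of CpG dinucleotides was 20 per promoter for members and 7 for all, so the windows of members were richer in the bases of the GC-rich motifs. A match is a description of the letters and not evidence of binding.

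In complex IV, the terminal oxidase, 14 of 18 nuclear structural genes were measured, of which 11 lay above no change in S1 over S0 and 0 below (39.8% and 42.9% of all genes), with a median log2 ratio of 0.40. Cox7a1 is among the 11 and enters the median, although its direction was set by the filter. Cox6b1 had the highest level per length, at 156, 189, 175 and 165 RPKM, and Cox4i2 the lowest measured, at 0.322, 0.501, 0.606 and 0.476 RPKM. Ndufa4, now placed in complex IV, stood at 87.8, 156, 121 and 102 CPM, 1.78-fold higher in S1 (1.69 to 1.87). Cox4i1, needed for assembly of the complex, stood at 266, 273, 242 and 243 CPM and neighbouring stages differed by at most 1.13-fold.

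The nuclear members that passed the rule in complex IV were tissue-restricted isoforms at low levels. Cox6b2 (ENSMUSG00000051811), known as the testis form of subunit VIb, had 40, 143, 24 and 228 reads in S0 to S3. In CPM this was 1.5, 4.92, 1.09 and 9.73, high in S1 and S3 and low in S0 and S2. S1 was 3.29-fold above S0 (2.30 to 4.79), S2 was 4.51-fold below S1 (2.91 to 7.26), and S3 was 8.91-fold above S2 (5.84 to 14.2) and 6.5-fold above S0 (4.63 to 9.34). It was the only nuclear member past the rule in S3 over S2 and in S3 over S0.

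Cox7a1 (ENSMUSG00000074218), the heart and skeletal muscle form of subunit VIIa, had 21, 100, 14 and 22 reads, which is 0.786, 3.44, 0.637 and 0.939 CPM. It was 4.38-fold higher in S1 than in S0 (2.72 to 7.39) and 5.40-fold lower in S2 than in S1 (3.07 to 10.2). Cox7a1 reached 1 CPM in S1 alone, so its directions in S1 over S0 and in S2 over S1 were set by the filter. Its S3 over S0 ratio was 1.19-fold (0.627 to 2.28). Cox4i2, the lung form of subunit IV, had 18, 27, 28 and 23 reads, and all its intervals crossed no change.

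The widely expressed partners stayed far more abundant. Cox6b1 stood at 224, 242, 253 and 235 CPM and Cox7a2 at 80.4, 117, 82.9 and 75.5 CPM. Of the summed RPKM of each pair, Cox6b2 made up 0.574%, 1.72%, 0.371% and 3.46% in S0 to S3, Cox7a1 1.98%, 5.77%, 1.57% and 2.51%, and Cox4i2 0.264%, 0.355%, 0.546% and 0.420%. The isoforms that were not measured had 8 reads or fewer in every library (Cox6a2 8, 2, 1 and 1), and Cox8c, a testis form, was at 0 reads in all 4.

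**Figure D5:**
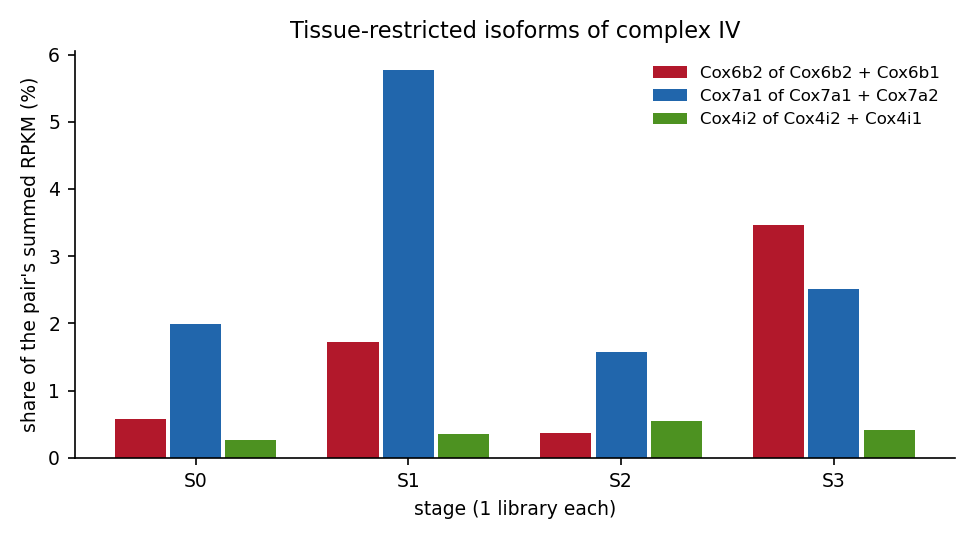
Share of the summed RPKM of an isoform pair (%) taken by the tissue-restricted form in each stage (bars, 1 library each, no error drawn). Cox6b2 peaks in S1 (1.72%) and S3 (3.46%), Cox7a1 in S1 (5.77%), and Cox4i2 stays below 1%. Cox7a1 is included only because it reached 1 CPM in S1.

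The promoters of both isoform pairs are shown for their CpG dinucleotides, on which DNA methylation in mammals mainly falls. Promoter methylation was not measured in these data. The sequences are the 250 bases before the RefSeq start (GRCm38.p6), 5′ to 3′ on the gene's strand, with each CpG in capitals. They lie at chr7:4753095-4753344 (minus strand) for Cox6b2, chr7:30626115-30626364 (minus strand) for Cox6b1, chr7:30183921-30184170 (plus strand) for Cox7a1 and chr9:79759854-79760103 (minus strand) for Cox7a2.
Cox6b2: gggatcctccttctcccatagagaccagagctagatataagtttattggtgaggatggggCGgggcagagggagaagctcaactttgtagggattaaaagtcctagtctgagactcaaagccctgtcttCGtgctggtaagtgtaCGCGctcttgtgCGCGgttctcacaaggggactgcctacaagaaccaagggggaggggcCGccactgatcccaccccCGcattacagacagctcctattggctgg
Cox6b1: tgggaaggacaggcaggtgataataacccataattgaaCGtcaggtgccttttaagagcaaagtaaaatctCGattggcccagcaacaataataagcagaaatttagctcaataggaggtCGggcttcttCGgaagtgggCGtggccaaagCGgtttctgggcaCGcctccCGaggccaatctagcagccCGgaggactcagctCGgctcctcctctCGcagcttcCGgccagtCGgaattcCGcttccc
Cox7a1: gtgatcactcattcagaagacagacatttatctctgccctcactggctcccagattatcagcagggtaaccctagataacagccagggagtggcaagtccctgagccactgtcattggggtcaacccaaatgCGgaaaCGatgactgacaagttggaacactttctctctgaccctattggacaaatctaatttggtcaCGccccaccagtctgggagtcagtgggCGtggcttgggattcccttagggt
Cox7a2: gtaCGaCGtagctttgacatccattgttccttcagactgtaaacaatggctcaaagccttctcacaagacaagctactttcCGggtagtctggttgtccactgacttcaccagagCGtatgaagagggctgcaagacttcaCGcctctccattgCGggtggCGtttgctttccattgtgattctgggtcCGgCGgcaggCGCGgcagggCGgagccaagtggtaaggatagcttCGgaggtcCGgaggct
Over these 250 bases Cox6b2 held 8 CpG dinucleotides and its partner Cox6b1 14, and Cox7a1 held 4 and its partner Cox7a2 14. These promoters were chosen after the levels were seen. Not every pair had this order, since over 300 bases the restricted Cox7b2 held 10 CpG dinucleotides and its partner Cox7b 5.

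Among the assembly factors that the rule takes, Ndufaf2 (ENSMUSG00000068184), a chaperone of complex I, was the only one past the rule. It had 110, 342, 136 and 86 reads, or 4.12, 11.8, 6.19 and 3.67 CPM, and S1 was 2.86-fold above S0 (2.30 to 3.58). S1 stood above all other stages. Ndufaf2 overlaps the predicted gene Gm52057 in the RefSeq annotation, so its reads are uncertain. Cox10, which makes the heme of complex IV, stood at 18.8, 10.7, 11.4 and 9.61 CPM, 1.96-fold lower in S3 than in S0 (1.67 to 2.30). Cox17, a copper chaperone, stood at 4.79, 8.51, 6.33 and 3.76 CPM. Cox7a2l, which takes part in joining complexes into supercomplexes, stood at 136, 222, 142 and 167 CPM, 1.63-fold higher in S1 (1.56 to 1.69). Atp5s stood at 3.71, 8.92, 7.42 and 8.11 CPM, 2.41-fold higher in S1 than in S0 with an interval from 1.90 to 3.07.

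Further assembly factors were taken from a separate list, of which 29 of 31 were measured. In S1 over S0, 3 were higher and 0 lower, where the background was 12.6% higher and 13.1% lower, and in the other comparisons 0 passed the rule in either direction. Sdhaf3, an assembly factor of complex II, stood at 4.75, 16.4, 7.01 and 6.83 CPM (3.45-fold, 2.83 to 4.23). Timmdc1, of complex I, stood at 27.3, 73.5, 60.6 and 48.2 CPM (2.69-fold, 2.47 to 2.93). Lyrm7, of complex III, stood at 1.57, 5.51, 4.83 and 4.48 CPM (3.5-fold, 2.48 to 5.05).

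Of 19 listed regulators of mitochondrial biogenesis, 2 were higher and 3 lower in S1 over S0, with a median log2 ratio of -0.35. These counts are near the background of 12.6% higher and 13.1% lower. The coactivators Ppargc1b and Pprc1 were 3.04-fold (2.18 to 4.30) and 3.34-fold (2.87 to 3.89) lower, and Gabpb2, a partner of GABPA, 3.59-fold lower (3.28 to 3.94). Tfb1m, a methyltransferase of mitochondrial ribosomal RNA, was 2.66-fold higher (2.08 to 3.44), and the nuclear receptor Esrrg had 5 reads in S0 and 30 in S1. Esrrg reached 1 CPM in S1 alone, so its direction there was set by the filter. By S3 over S0, 0 were higher and 1 lower, Ppargc1b, with 137, 49, 18 and 10 reads in S0 to S3 (12-fold lower, 6.34 to 25.6). Tfam, which packages mitochondrial DNA and starts its transcription, stood at 25.2, 47.9, 33.8 and 43.8 CPM and did not pass the rule.

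Of 9 measured genes of mitochondrial DNA replication, Mgme1, a nuclease of that process, was lower in S1 over S0 (4.43-fold, 3.35 to 5.94) and 0 were higher. That is 11.1% lower, where 12.6% of all genes were higher and 13.1% lower. Of 17 genes that process or stabilise mitochondrial RNA, Tbrg4 was lower in S1 over S0 (2.27-fold, 2.05 to 2.51) and 0 were higher, which is 5.88% lower against the same background. Neither list had a member past the rule in the other comparisons. Of 14 citric acid cycle genes, Idh2, the mitochondrial isocitrate dehydrogenase that makes NADPH, stood at 107, 98.7, 39.6 and 106 CPM. It was lower in S2 than S1 (2.49-fold, 2.31 to 2.69) and higher in S3 than S2 (2.66-fold, 2.47 to 2.88). No other member passed the rule, and 10.1% of all genes were lower in S2 over S1 and 3.69% higher in S3 over S2. Of 8 genes for cytochrome c, inner membrane carriers and the Vdac channels of the outer membrane, the adenine nucleotide carrier Slc25a5 stood at 354, 135, 261 and 241 CPM, 2.61-fold lower in S1 than in S0 (2.52 to 2.71). Ucp2, a carrier known to restrain insulin secretion in beta cells, stood at 99.3, 56.3, 14.5 and 36.3 CPM. It was 3.87-fold lower in S2 than in S1 (3.43 to 4.38), 2.50-fold higher in S3 than in S2 (2.20 to 2.85) and 2.73-fold lower in S3 than in S0 (2.53 to 2.96). Of these 8 genes, 1 was thus called in each comparison. The shares of all genes were 13.1% lower in S1 over S0, 10.1% lower in S2 over S1, 3.69% higher in S3 over S2 and 10.5% lower in S3 over S0. The values in these 4 lists are those of single genes and not results about the lists.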

How the data were processed

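RNA was isolated with Trizol and libraries made with a stranded total RNA kit, per the labels' protocols. The authors deposited read counts per gene and RPKM values per gene, each named so per the file headers. The build was mm9 and bcl2fastq was used, per the submitters' processing notes. For aligner, counting program, annotation and strand use, the sources used here give nothing. From the RefSeq lengths of the 13 mitochondrial genes, the deposited RPKM rest on library totals of which reads in genes were 35.8% to 36.4%.

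Counts were scaled with TMM factors (0.968, 1.089, 0.957 and 0.991) from edgeR 4.0.16 in R 4.3.3. The 15222 genes that reached 1 CPM in some library were kept. Log2 ratios and exact 95% Clopper-Pearson intervals were computed with Python 3.11.15 and scipy 1.17.1. A gene was called when its interval lay wholly beyond 2-fold. A gene with 0 reads was set against a floor of 3 reads. No molecular identifiers are mentioned in the labels, so reads are not counted as independent molecules. The calculation was tested on simulated counts with counting error alone, which hold no spread between cultures or libraries. RPKM served to compare genes per length. Named genes were all mitochondrial members, called nuclear members and up to 3 called genes per direction in other lists, tissue-restricted isoforms with their partners, and the highest and lowest member of each complex by mean RPKM; other members were named after their values were seen. The members and lists were chosen with earlier results of these data known. Promoters came from the RefSeq table of GRCm38.p6, whose coordinates are not those of the files' build. Alternatives were no scaling, DESeq2 1.42.0 size factors, scaling over the nuclear genome, no filter, a 1.5-fold limit, point ratios, RPKM with a pseudocount of 0.1, structural subunits alone and sums without mt-Co1.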

Additional observations from a re-analysis of the deposited data

How the results depend on the processing

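The direction of the median of the mitochondrial members was the same under every scaling and filter tried, and the order of the stages in the ratio of mitochondrial to nuclear reads was the same in all 4 forms computed. In S0 to S3 that ratio was 1.30, 0.982, 1.87 and 2.99 from summed RPKM, 1.56, 1.30, 2.37 and 3.88 over structural subunits alone, and 0.252, 0.151, 0.325 and 0.559 without mt-Co1. Without scaling factors the median of all genes shifted by 0.17 (log2) in S1 over S0 and by -0.19 in S2 over S1. The mitochondrial medians without scaling were -0.27, 0.72, 0.90 and 1.24 in the order of comparisons used above (each stage over the one before, then S3 over S0), and the nuclear ones 0.46, -0.27, -0.0034 and 0.065. With DESeq2 size factors the mitochondrial medians were -0.46, 0.87 and 1.16 in S1 over S0, S2 over S1 and S3 over S0, and the nuclear ones 0.28, -0.12 and -0.017, the last with its sign turned. With no filter the nuclear medians were 0.24 in S1 over S0 and 0.050 in S3 over S0.

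Calls depended on the limit. Without scaling, 0 mitochondrial members were higher in S2 over S1, with DESeq2 size factors 1, and 8 nuclear members were higher in S1 over S0 without scaling. With a 1.5-fold limit, mitochondrial calls were 4 lower in S1 over S0, 10 higher in S2 over S1, 9 higher in S3 over S2 and 12 higher in S3 over S0. Of 95 measured nuclear members, 18 were then higher and 2 lower in S1 over S0 (all genes 19.7% and 21.6%). In S2 over S1, 1 was higher and 6 lower (14.8% and 16.1%), and in S3 over S2, 1 was higher and 0 lower (7.29% and 3.36%). In S3 over S0, 2 were higher and 1 lower (16.4% and 15.4%). The 18 higher in S1 over S0 were thus near the background. From point ratios beyond 2-fold, mitochondrial calls were 1 lower, then 5, 2 and 12 higher in the same order of comparisons. Nuclear calls were 6 higher in S1 over S0 (all genes 17.5% higher, 17.4% lower), and 1 higher and 2 lower in S2 over S1 (11.1% and 16%). They were 1 higher in S3 over S2 (8.57% and 4.85%) and 2 higher in S3 over S0 (15.1% and 14.2%). From RPKM, mitochondrial calls were 1 lower, then 1, 3 and 12 higher. Nuclear calls from RPKM were 10 higher in S1 over S0, 3 lower in S2 over S1, 1 higher in S3 over S2 and 2 higher in S3 over S0. The shares of all genes called without scaling, with DESeq2 size factors or from RPKM are not given here, so those counts have no background beside them. Scaling over the nuclear genome alone moved none of 24 values. The cause of these differences was not tested beyond the alternatives' own construction.

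No paired analysis was possible because each stage is 1 library, and no replicate could be left out. Depth limits the sparse members: at 12 to 76 reads for mt-Atp8 and 14 to 100 for Cox7a1, ratios near 2-fold were not detectable as such.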
